A study of Cricetulus griseus with 4 samples.

Results

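The respiratory chain genes described here were chosen by gene name and annotation from a gene expression table of CHO-K1 cells, an established Chinese hamster ovary line. They comprise the 13 mitochondrial-encoded subunit genes and the 57 nuclear genes whose symbols follow the subunit naming of complexes I to V, or 70 of 20754 genes. The nuclear members are 35 of complex I, 4 of complex II, 16 of complex V and the 2 genes Ndufa4 and Ndufa4l2, whose names come from complex I but whose products are now placed with complex IV. No description among them named an assembly factor, although Atp5s (factor B) and its relative Atp5sl are not structural subunits of the ATP synthase. The table lists the nuclear subunits of complex III and most of those of complex IV under LOC identifiers, so the naming rule does not find them. Another 19 such rows whose descriptions name a subunit are given beside the members and not counted among them.

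All cells grew for 24 hr and were then kept for another 24 hr in medium whose serum, at 5%, was lipid-depleted and which held compactin and lithium mevalonate at 50 µM each. Compactin is a statin that blocks sterol synthesis at an early step. The medium further contained either DMSO as the control, 25-hydroxyvitamin D3, a compound selective for SREBP inhibition or one selective for activation of the VDR. The labels give no dose or structure for the compounds. The VDR is the vitamin D receptor, and the SREBPs are the factors that drive lipid synthesis, so the design sets the response to 25-hydroxyvitamin D3 beside each of these activities alone.

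Each treatment has 1 poly(A) library, so no difference has a replicate check and no p-value is given. Totals ran from 21335614 to 23653262 counts. Levels are counts per 1000000 (CPM) on TMM-adjusted library sizes, and 1 CPM corresponds to 20.4 to 24.4 counts. A gene was called when log2(CPM + 1) differed by at least 1, that is 2-fold, with at least 1 CPM and 10 counts in 1 of the libraries compared, which all 70 members had. Folds of single genes are ratios of CPM, with a 95% interval that covers counting error only. The line's mesenchymal-type markers Vim, Fn1, Lgals1 and S100a6 were all detected, with a summed level of 3689 CPM in DMSO, 1329 under 25-hydroxyvitamin D3, 3276 under the SREBP inhibitor and 2358 under the VDR activator. Of 8 markers of epithelial, blood, endothelial and liver cells, 2 reached 10 counts in each library, and their sum stayed between 1.37 and 2.63 CPM. Ptprc, Cd3e and Krt18 were at 0 counts in every library.

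The respiratory chain carries electrons from NADH (complex I) and succinate (complex II) through coenzyme Q, complex III and cytochrome c to oxygen at complex IV, and the ATP synthase (complex V) uses the resulting proton gradient. Complex II is encoded by the nucleus alone, and the others join subunits from both genomes. The mitochondrial genes are copied as long transcripts from each strand of a circular genome and cut into separate mRNAs, most of which are given short poly(A) tails. Nuclear subunits are instead transcribed, translated outside and imported.

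The genomes separated in the library of 25-hydroxyvitamin D3. All 13 mitochondrial-encoded members were at least 2-fold lower than in DMSO, where 12.2% of all genes tested were called lower, and their median difference was -3.43 log2 beside 0.04 over all genes. Of the 57 nuclear members, 1 was called higher and 0 lower, with a median of -0.02, beside 11.6% of all genes called higher. The share of counts on mitochondrial-encoded genes was 6.81% in DMSO (Clopper-Pearson 6.80 to 6.82), 5.25% with the SREBP inhibitor, 5.93% with the VDR activator and 0.753% with 25-hydroxyvitamin D3 (0.750 to 0.757). The nuclear members held 0.563%, 0.592%, 0.640% and 0.616% in the same order, a narrow range. In bulk RNA, fewer cells of a kind and less of an RNA per cell cannot be told apart. Nor can a poly(A) library tell the amount of an RNA from the state of its tail. The summed mesenchymal markers were also lowest with 25-hydroxyvitamin D3, and their part in this result was not tested. Singly, the 4 markers differed unevenly from DMSO, from -3.67 to -0.57 log2, with 2 called lower (12.2% of all genes). Against the VDR activator 1 of the 4 was not lower.

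**Figure D1:**
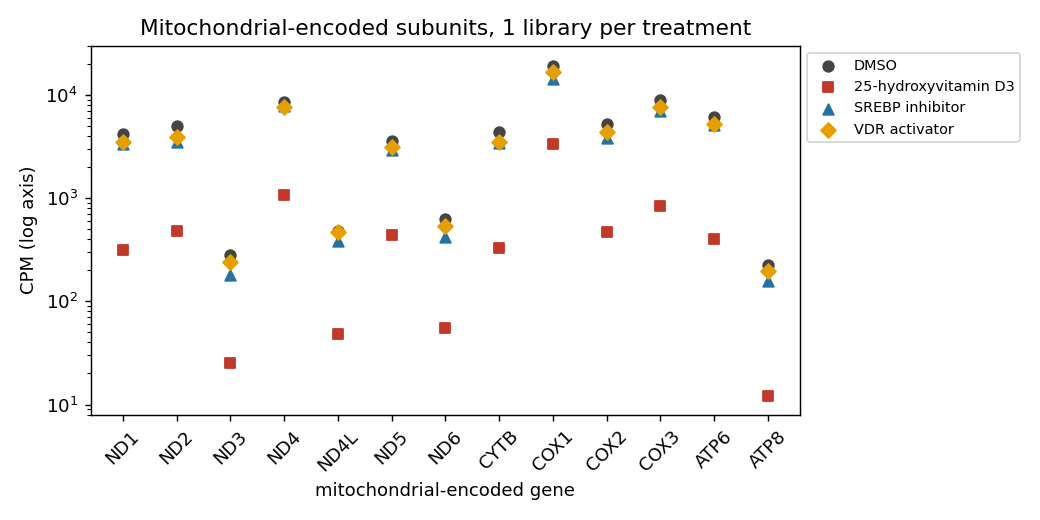
CPM (log axis) of each of the 13 mitochondrial-encoded genes, 1 point per library. The points of 25-hydroxyvitamin D3 lie below those of the other 3 libraries for every gene, from 12.2 CPM (ATP8) to 3380 CPM (COX1).

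The 7 mitochondrial-encoded subunits of complex I form its membrane arm, in which ND2, ND4 and ND5 are the antiporter-like proton pumps and ND1 borders the quinone site. ND1 had 4180 CPM in DMSO, 3352 under the SREBP inhibitor, 3539 with the VDR activator and 316 with 25-hydroxyvitamin D3, which was 13.2-fold below DMSO (12.9 to 13.5). ND2 had 5052, 3540, 3951 and 477 CPM in the same order, 10.6-fold lower with 25-hydroxyvitamin D3 (10.4 to 10.8). In both genes the DMSO library was highest and the libraries of the selective compounds lay far closer to it than to 25-hydroxyvitamin D3. ND4 had 8603 CPM in DMSO, 7864 under the SREBP inhibitor, 7657 with the VDR activator and 1078 with 25-hydroxyvitamin D3 (7.98-fold lower, 7.87 to 8.09). ND5 had 3600, 2953, 3142 and 436 CPM, 8.26-fold lower (8.08 to 8.44). These long pump genes were thus less far below DMSO than ND1 and ND2 in these libraries. The intervals do not meet, but they cover counting error only and not the spread between cultures.

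The small membrane subunits ND3, ND4L and ND6 were low in count throughout. ND3 had 280 CPM in DMSO, 181 under the SREBP inhibitor, 243 with the VDR activator and 25.2 with 25-hydroxyvitamin D3, 11.1-fold below DMSO (10.2 to 12.2). ND6 had 628, 423, 538 and 54.9 CPM, 11.4-fold lower (10.8 to 12.2), and ND4L had 485, 389, 467 and 48.3 CPM, 10.0-fold lower (9.39 to 10.7). ND6 is the only one of the 13 on the opposite strand of the mammalian mitochondrial genome. The sources used here do not state that strand was used in counting, so reads from ND6 and from its antisense transcript cannot be told apart. ND4L overlaps ND4, and ATP8 overlaps ATP6, on shared mRNAs, and the split of reads within each pair depends on the authors' counting.

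CYTB, the haem protein at the centre of complex III, had 4366 CPM in DMSO, 3424 under the SREBP inhibitor, 3474 with the VDR activator and 333 with 25-hydroxyvitamin D3, 13.1-fold lower than DMSO (12.8 to 13.5). In complex IV, COX1 holds the haem and copper site where oxygen is reduced, COX2 takes electrons from cytochrome c and COX3 is the third core subunit. COX1 had the highest CPM and, with 25-hydroxyvitamin D3, the smallest difference from DMSO of the 13 mitochondrial-encoded genes. It had 19305 CPM in DMSO, 14370, 16937 and 3380 CPM, 5.71-fold lower with 25-hydroxyvitamin D3 (5.67 to 5.76). COX2 had 5224, 3804, 4361 and 476 CPM (a log2 difference of -3.45) and COX3 8913, 7071, 7695 and 848 CPM (10.5-fold lower, 10.3 to 10.7). So with 25-hydroxyvitamin D3 the core subunits of complex IV differed among themselves, with COX1 nearer to DMSO than COX2 and COX3. With the SREBP inhibitor COX3 was the nearest, at -0.33 log2 beside -0.43 for COX1 and -0.46 for COX2.

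With 25-hydroxyvitamin D3 the mitochondrial-encoded subunits of the ATP synthase were lowest relative to DMSO. ATP6, which forms the proton channel beside the c ring, had 6104 CPM in DMSO, 5107 under the SREBP inhibitor, 5213 with the VDR activator and 402 with 25-hydroxyvitamin D3, 15.2-fold lower (14.9 to 15.5). ATP8, its small partner in the membrane, had 228, 158, 196 and 12.2 CPM, 18.7-fold lower (16.5 to 21.3). In all 13 genes DMSO was highest and 25-hydroxyvitamin D3 lowest, and in 12 the VDR activator came second and the SREBP inhibitor next, with ND4 the exception. By complex, the median difference between 25-hydroxyvitamin D3 and DMSO was -4.02 log2 for the 2 genes of complex V and -3.71 for CYTB. It was -3.40 for the 7 of complex I and -3.39 for the 3 of complex IV.

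The make-up of the mitochondrial-encoded counts differed as well, a comparison that no scaling between libraries enters. COX1 took 28.8% of them in DMSO, 27.3% with the SREBP inhibitor and 29.5% with the VDR activator, but 42.9% with 25-hydroxyvitamin D3 (42.6 to 43.1). ATP6 took 9.11% in DMSO, 9.70% and 9.08% with the selective compounds and 5.09% with 25-hydroxyvitamin D3 (4.99 to 5.20). ATP8 took 0.340%, 0.299%, 0.341% and 0.154% (0.136 to 0.175). The shares of ND4 and ND5 with 25-hydroxyvitamin D3, 13.7% and 5.53%, stood near those in DMSO, 12.8% and 5.38%. Across the 13 genes the difference between 25-hydroxyvitamin D3 and DMSO went with gene length as implied by count and FPKM (Spearman 0.55, Pearson 0.58 on log2 length). This is a description over genes that share a library and in part a transcript. COX1, ND4 and ND5 are the longest, and ATP8 is the shortest.

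**Figure D2:**
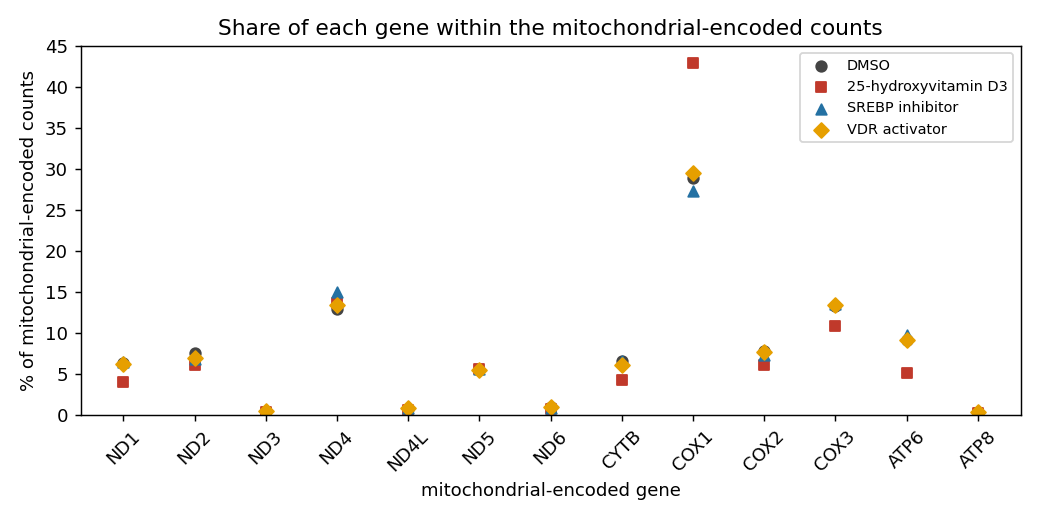
Share of each gene (%) within the mitochondrial-encoded counts of a library, 1 point per library. COX1 stands at 42.9% with 25-hydroxyvitamin D3 and between 27.3% and 29.5% in the other libraries, while ATP6 is lowest with 25-hydroxyvitamin D3.

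With the SREBP inhibitor, 0 of the 13 mitochondrial-encoded members passed 2-fold, where 1.4% of all genes tested were called lower and 1.95% higher. All 13 lay below DMSO, from 1.09-fold for ND4 (1.09 to 1.10) to 1.55-fold for ND3 (1.49 to 1.61), with a median of -0.35 log2 beside 0.01 over all genes. With the VDR activator 0 of 13 passed 2-fold too, where 0.324% of genes were called lower and 0.184% higher, and all 13 again lay below DMSO, from 1.04-fold for ND4L (1.01 to 1.07) to 1.28-fold for ND2 (1.27 to 1.29), with a median of -0.21 beside 0.01. The libraries share the DMSO control, so these orders are not independent of one another. In a direct comparison with the SREBP inhibitor, all 13 were called lower with 25-hydroxyvitamin D3, from 4.25-fold for COX1 (4.22 to 4.29) to 12.9-fold for ATP8 (11.4 to 14.8), where 6.05% of genes were called lower. Against the VDR activator all 13 were called lower as well, from 5.01-fold for COX1 (4.97 to 5.05) to 16.1-fold for ATP8 (14.2 to 18.4), beside 9.9% of genes.

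Nuclear members of complex I were spread around no difference with 25-hydroxyvitamin D3. Of 35, 15 lay above and 20 below DMSO, and the median was -0.03. In this set 0 passed 2-fold in either direction, where 11.6% of all genes were called higher and 12.2% lower. At a limit of 1.5-fold, 5 of all 57 nuclear members were higher and 5 lower, where 24.2% and 23.6% of all genes were. The lowest in complex I was Ndufa2, an accessory subunit of the NADH-oxidising arm, with 11.8 CPM in DMSO, 9.18 under the SREBP inhibitor, 11.5 with the VDR activator and 5.45 with 25-hydroxyvitamin D3. Its CPM was 2.17-fold lower (1.73 to 2.73), which on the log2(CPM + 1) scale came to -0.99, just short of the limit. The highest was Ndufs4, an accessory subunit of the same arm, with 47.0, 66.4, 52.1 and 84.4 CPM in that order, 1.80-fold above DMSO (1.66 to 1.94). Thus accessory subunits of the same arm stood at both ends.

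The 7 nuclear core subunits carry the flavin and the chain of iron-sulphur clusters, and their median log2 difference from DMSO was 0.31 with 25-hydroxyvitamin D3, 0.01 under the SREBP inhibitor and 0.19 under the VDR activator. Ndufv1, which binds NADH and the flavin, had 175 CPM in DMSO, 202 under the SREBP inhibitor, 204 with the VDR activator and 232 with 25-hydroxyvitamin D3 (1.32-fold, 1.27 to 1.38). Its neighbour Ndufv2 had 119, 144, 136 and 164 CPM, and Ndufs1, the largest subunit, 147, 148, 166 and 182. Ndufs7, which holds the last cluster before the quinone, was highest among the core with 46.6, 61.9, 58.6 and 80.8 CPM (1.73-fold, 1.60 to 1.88). In contrast Ndufs3, of the matrix arm, had 79.6, 78.7, 84.1 and 75.3, and the iron-sulphur subunit Ndufs8 37.6, 37.1, 44.2 and 29.7. So 4 of the 7 lay above and 3 below DMSO with 25-hydroxyvitamin D3, whereas the VDR activator had all 7 above by at most 0.32 log2.

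The 28 accessory subunits, which surround the core and are needed for its assembly and stability, had a median of -0.03 with 25-hydroxyvitamin D3, with 11 above DMSO and 17 below. Among the lower ones, Ndufb3 of the membrane arm had 49.9 CPM in DMSO, 43.4 under the SREBP inhibitor, 56.1 with the VDR activator and 29.2 with 25-hydroxyvitamin D3, 1.71-fold below DMSO. The small membrane subunit Ndufc1 followed with 46.3, 41.0, 44.8 and 30.0 CPM, and Ndufb5 with 110, 107, 114 and 77.2. In each of these genes the 25-hydroxyvitamin D3 library was the lowest of the 4. At the other end, Ndufa6 at the base of the matrix arm had 35.7, 46.5, 40.7 and 59.7 CPM, Ndufa8 64.8, 76.1, 69.9 and 93.5, and Ndufa9, beside the quinone site, 74.4, 83.8, 85.2 and 98.4. Ndufb8 of the membrane arm was highest under the SREBP inhibitor, with 88.6 CPM in DMSO, 126, 109 with the VDR activator and 119 with 25-hydroxyvitamin D3. Ndufb6, Ndufb7, Ndufb10 and Ndufs6 differed from DMSO by at most 0.04 log2 with 25-hydroxyvitamin D3. A second row described like Ndufs6 had at most 1.13 CPM and a row described as like Atp5j2 at most 1.43, so little of the reads of these members could stand there.

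Complex II, which has no mitochondrial-encoded subunit and also works in the citric acid cycle, held the one nuclear member called in a comparison with DMSO. Sdhb, its iron-sulphur subunit, had 74.7 CPM in DMSO, 89.3 with the VDR activator, 110 under the SREBP inhibitor and 156 with 25-hydroxyvitamin D3, 2.09-fold above DMSO (1.97 to 2.22). Its log2 difference of 1.05 was 0.96 with total counts and 0.97 with the FPKM library totals, which end the call. Sdha, the flavoprotein that oxidises succinate, had 405, 444, 452 and 538 CPM in that order, 1.33-fold higher (1.29 to 1.36). The membrane anchors did not share this direction. Sdhc had 155 CPM in DMSO, 169, 153 and 153, and Sdhd had 206, 233, 192 and 172, 1.20-fold below DMSO with 25-hydroxyvitamin D3.

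In the ATP synthase the large head subunits and the c ring lay above DMSO with 25-hydroxyvitamin D3 and the small membrane subunits below. Of its 16 members 0 passed 2-fold, where 11.6% of all genes were called higher and 12.2% lower. The catalytic subunit gene Atp5b had 565 CPM in DMSO, 727 under the SREBP inhibitor, 711 with the VDR activator and 876 with 25-hydroxyvitamin D3, the highest level and the highest difference among the complex V members (1.55-fold, 1.51 to 1.59). Atp5a1, the alpha subunit of the same head, had 336, 366, 405 and 472 CPM. The smaller head subunits Atp5d and Atp5e differed by 0.08 and -0.18 log2. The genes Atp5g1, Atp5g2 and Atp5g3 encode the same mature c-ring protein and had log2 differences of 0.44, 0.57 and 0.07, and because the close relatives can share reads their split is uncertain. In the peripheral stalk, which holds the head still, Atp5f1 stood at 0.54, Atp5o at 0.37, Atp5j at 0.16 and Atp5h at -0.20 log2.

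All 3 supernumerary subunits of the membrane part were below DMSO with 25-hydroxyvitamin D3, by a median of -0.54. Atp5i, the e subunit, had 20.2 CPM in DMSO, 15.3 under the SREBP inhibitor, 23.5 with the VDR activator and 9.76 with 25-hydroxyvitamin D3, 2.07-fold below DMSO (1.75 to 2.46) and -0.98 on the log2(CPM + 1) scale. Against the VDR activator it was 2.41-fold lower (2.05 to 2.85), the single nuclear member called lower in that comparison. The f subunit gene Atp5j2 had 154, 119, 159 and 106 CPM and the g subunit gene Atp5l 185, 156, 176 and 131. These genes were thus ordered alike, lowest with 25-hydroxyvitamin D3 and next with the SREBP inhibitor. Factor B (Atp5s) had at most 6.29 CPM and Atp5sl at most 1.96, and the intervals of their ratios between 25-hydroxyvitamin D3 and DMSO include 1.

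Ndufa4, a subunit of complex IV despite its name, had 151 CPM in DMSO, 119 under the SREBP inhibitor, 134 with the VDR activator and 85.6 with 25-hydroxyvitamin D3, 1.76-fold below DMSO (1.66 to 1.87). Its relative Ndufa4l2, known as a hypoxia-responsive gene, stayed between 2.28 and 3.23 CPM. Of the other tissue-restricted isoforms on the list, the rows described as Cox6a2, Cox8c, Cox4i2 and the Cox7b2-like and Cox8b-like genes had at most 0.393 CPM in any library.

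**Figure D3:**
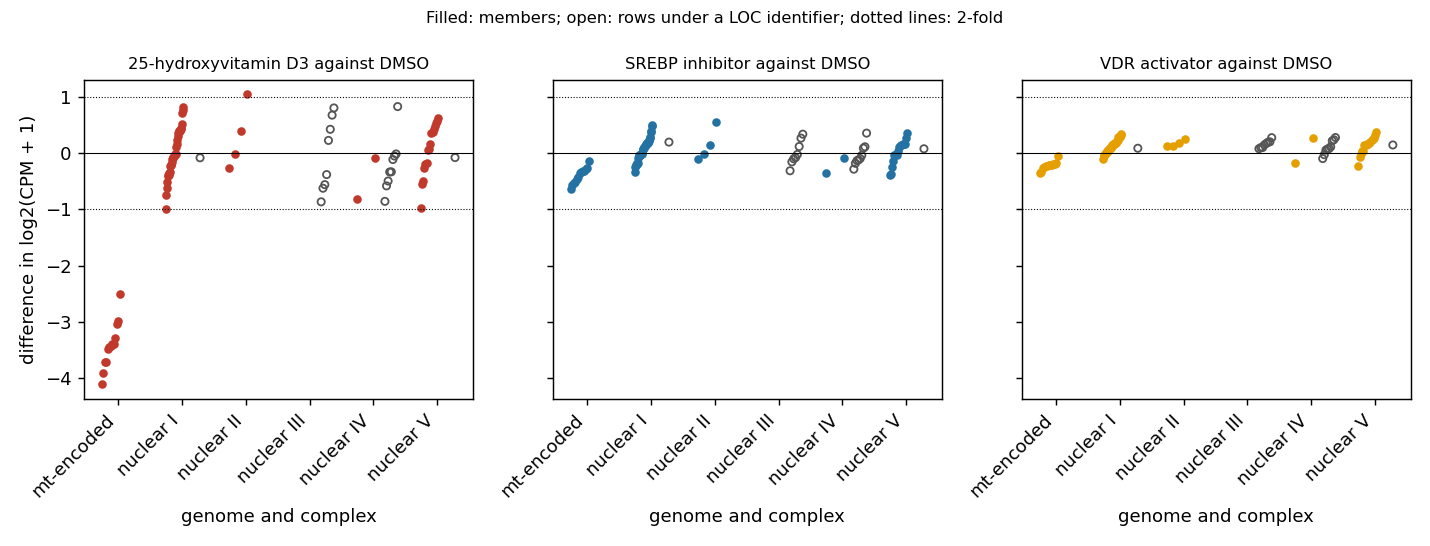
Difference in log2(CPM + 1) from DMSO for each compound, by genome and complex, with 1 point per gene. With 25-hydroxyvitamin D3 the mitochondrial-encoded genes lie between -4.12 and -2.51 and the nuclear members between -0.99 and 1.05, while with the selective compounds all points lie within the 2-fold lines.

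The rows under LOC identifiers gave most of the nuclear side of complexes III and IV. In complex III the subunits that work in catalysis or build the matrix arm lay above DMSO with 25-hydroxyvitamin D3. The row described as subunit 2 had 90.6 CPM in DMSO, 98.7 under the SREBP inhibitor, 97.4 with the VDR activator and 160 with 25-hydroxyvitamin D3 (1.76-fold, 1.66 to 1.86). Subunit 1 had 148, 188, 164 and 238 CPM (1.61-fold), and the Rieske iron-sulphur protein 94.0, 114, 108 and 127 (1.35-fold, 1.27 to 1.43). Of the 5 small subunits, 4 lay below DMSO. Subunit 6, the hinge protein near cytochrome c1, was lowest with 115, 113, 132 and 62.5 CPM (1.83-fold lower, 1.71 to 1.96).

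All subunits of complex IV encoded in the nucleus are supernumerary. Of the 9 rows counted here, 8 lay below DMSO with 25-hydroxyvitamin D3, with a median of -0.33. The exception was subunit 5A, with 117 CPM in DMSO, 151 under the SREBP inhibitor, 137 with the VDR activator and 210 with 25-hydroxyvitamin D3 (1.79-fold, 1.70 to 1.88). Its partner 5B had 91.9, 83.9, 97.0 and 72.9 CPM, and subunit 7A2 was lowest with 85.0, 69.7, 90.2 and 46.5 (1.83-fold lower, 1.69 to 1.98). So among these 9 rows 5A stood apart from the others, its partner included. Some of the others were near DMSO, with Cox6a1 at -0.05, Cox8a at -0.11 and Cox7a2l at -0.01 log2. The 9 leave out a nuclear complex IV row given below with the components outside the naming rule. That row lay at 1.03-fold with 25-hydroxyvitamin D3 (0.993 to 1.08), so the side of DMSO sets 5A apart only among the rows counted. A second row described as 7A2 had 35.8, 32.2, 35.8 and 19.1 CPM, and the reads of these copies may be split between them. Of the 19 rows, 0 passed 2-fold in any comparison with DMSO, where 23.8% of all genes did with 25-hydroxyvitamin D3, 3.35% with the SREBP inhibitor and 0.507% with the VDR activator, in either direction. Against the VDR activator, the row of subunit 6 of complex III was called lower with 25-hydroxyvitamin D3 (-1.06 log2). The gamma subunit of the ATP synthase head and Ndufb9 of complex I are also under LOC identifiers. Both differed by -0.08 log2 with 25-hydroxyvitamin D3.

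Among nuclear members the short genes tended to stand lower with 25-hydroxyvitamin D3. Of 13 members with an implied length under 0.5 kb, 3 lay above DMSO and the median was -0.18, while of 13 members of 1 to 2 kb, 9 lay above with a median of 0.40. Over all nuclear genes tested the same length classes had medians of 0.17 and 0.13, so these genes as a whole did not show the order seen in the members. Across the 57 members the Spearman correlation of length with the difference was 0.35 (25-hydroxyvitamin D3), 0.29 (SREBP inhibitor) and 0.05 (VDR activator), beside -0.12, -0.19 and -0.19 over all nuclear genes tested. These are descriptions across genes of the same libraries. The short members include supernumerary subunits as well as Atp5e of the head and Atp5j of the stalk, and the parts of length and role were not tested.

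**Figure D4:**
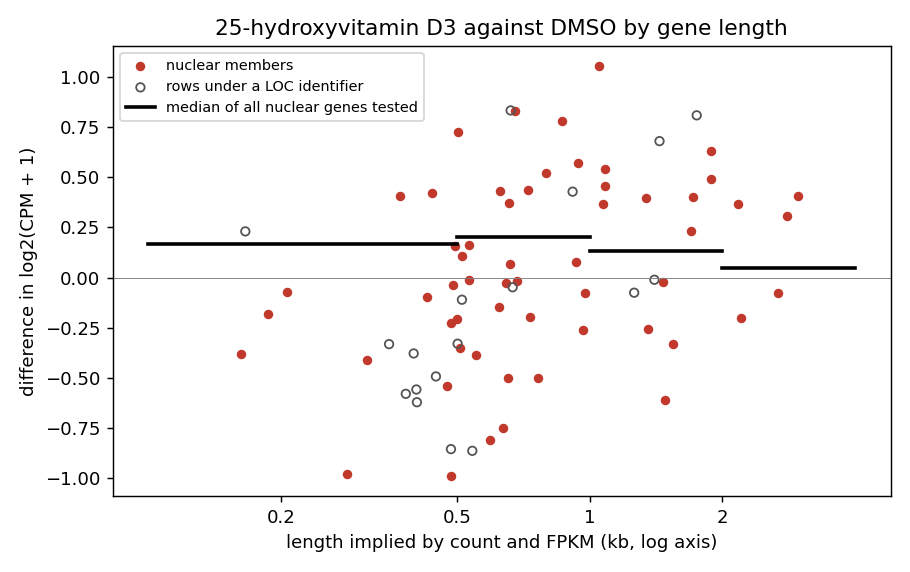
Difference in log2(CPM + 1) between 25-hydroxyvitamin D3 and DMSO against the length implied by count and FPKM (kb, log axis), for nuclear members and rows under LOC identifiers, with bars for the median of all nuclear genes in each length class. Short members lie mostly below 0, whereas the medians of all nuclear genes are 0.17 under 0.5 kb and 0.05 at 2 to 4 kb.

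Among the 57 nuclear members, the highest library was that of the VDR activator for 25, 25-hydroxyvitamin D3 for 21, DMSO for 6 and the SREBP inhibitor for 5. The lowest was 25-hydroxyvitamin D3 for 27 and DMSO for 25, so the library of 25-hydroxyvitamin D3 stood at one end or the other for most of them. With the selective compounds 0 of the 57 passed 2-fold, where 3.35% of all genes did with the SREBP inhibitor and 0.507% with the VDR activator, so for the latter 0 of 57 is near the share of all genes. With the SREBP inhibitor 31 lay above DMSO and 26 below, with a median of 0.08 beside 0.01 over all genes. Sdhb was highest (1.47-fold, 1.38 to 1.57) and Atp5i lowest (1.33-fold lower, 1.15 to 1.53), the genes that also stood at the ends of complexes II and V with 25-hydroxyvitamin D3. These comparisons share the DMSO library. With the VDR activator 49 lay above and 8 below, with a median of 0.15 beside 0.01 and a narrow range from -0.23 to 0.38. In the direct comparison with the SREBP inhibitor, 0 nuclear members were called in either direction, where 3.15% of genes were called higher and 6.05% lower. Against the VDR activator 0 were higher and 1 lower, where 8.54% were higher and 9.9% lower. Scaling with the FPKM library totals gave, over all genes in these direct comparisons, 233 higher and 845 lower in place of 356 and 685, and 744 and 1381 in place of 973 and 1127. Total counts gave 760 and 1356 for the latter. At 1.5-fold, 1 mitochondrial-encoded member (ND3) was lower with the SREBP inhibitor than in DMSO, where 6.2% of genes were. At that limit 2 nuclear members were lower with 25-hydroxyvitamin D3 than with the SREBP inhibitor (16.1% of genes), and against the VDR activator 2 were higher (20.5%) and 4 lower (21.1%).

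Levels per length, in the authors' FPKM, show how far apart the genomes stood within a complex. In complex I the median FPKM of mitochondrial-encoded genes was 30.2 times that of nuclear members in DMSO, 21.3 times with the SREBP inhibitor, 26.4 times with the VDR activator and 2.60 times with 25-hydroxyvitamin D3. In complex V, with the gamma row added and the factor B pair left out, the ratio was 35.6, 25.6, 25.6 and 1.69. For complexes III and IV, with nuclear levels taken from the LOC rows and Ndufa4, it was 29.9 and 59.1 in DMSO and 2.49 and 7.26 with 25-hydroxyvitamin D3. Mitochondrial-encoded mRNAs thus stood above the nuclear ones in median FPKM in every complex and library. The nuclear medians ran from 72.0 to 83.6 FPKM for complex I and 158 to 200 for complex V, both lowest in DMSO. They ran from 108 to 142 for complex III and 143 to 221 for complex IV, both lowest with 25-hydroxyvitamin D3.

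**Figure D5:**
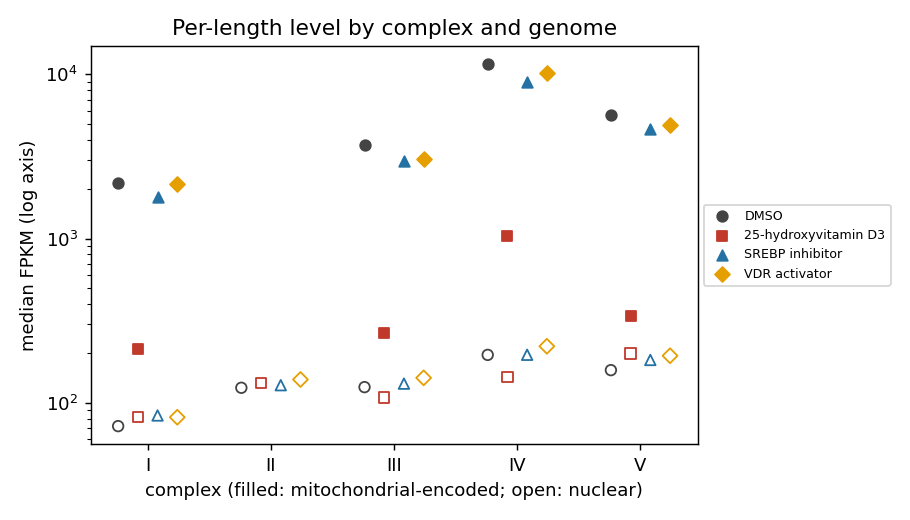
Median FPKM (log axis) of mitochondrial-encoded (filled) and nuclear (open) subunits by complex and library, with the nuclear side including LOC rows for complex III, complex IV (8 of 9) and complex V. With 25-hydroxyvitamin D3 the filled points lie closest to the open ones, at a ratio of 1.69 in complex V and 7.26 in complex IV.

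Of 6 measured electron carriers and subunits outside the naming rule, 5 lay above DMSO with 25-hydroxyvitamin D3. The row described as somatic cytochrome c, the carrier between complexes III and IV, had 51.3 CPM in DMSO, 64.2 with the VDR activator, 92.4 under the SREBP inhibitor and 168 with 25-hydroxyvitamin D3 (3.28-fold, 3.07 to 3.51). Cytochrome c1, the haem subunit that hands electrons to it, had 76.7, 98.2, 101 and 179 CPM (2.33-fold, 2.20 to 2.47). Both were called higher, as 2 of the 6 measured of 7 listed (11.6% of all genes), with a median of 0.61 log2. The others were Ndufab1, the acyl carrier subunit of complex I, at 1.57-fold (1.47 to 1.68), the ATP synthase inhibitor Atpif1 at 1.49-fold (1.37 to 1.62), the row described as subunit 4 isoform 1 of complex IV at 1.03-fold, and Usmg5, a small ATP synthase subunit, at 1.32-fold lower (1.20 to 1.46).

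Assembly factors insert cofactors and join the modules. Of 45 measured, 6 were called higher and 1 lower with 25-hydroxyvitamin D3, 34 lay above DMSO and the median was 0.40. Over all genes 11.6% were called higher and 12.2% lower, so the share of assembly factors called higher was near that of all genes. Ndufaf4, a complex I assembly factor, was 4.31-fold higher (3.71 to 5.02), with 10.1 CPM in DMSO, 13.5 with the VDR activator, 25.9 under the SREBP inhibitor and 43.7 with 25-hydroxyvitamin D3. The row described as the chaperone BCS1, which places the Rieske protein in complex III, was 2.93-fold higher (2.50 to 3.44), Lyrm7, which binds the same protein before insertion, 2.59-fold (1.99 to 3.40), and Ndufaf5 2.41-fold (2.06 to 2.84). Pet100, of complex IV assembly, was lower, at 2.60 against 8.84 CPM. Ndufaf4 was the one assembly factor called with the SREBP inhibitor, at 2.56-fold, where 1.95% of all genes were called higher. With the VDR activator 0 were called, near the 0.184% of all genes called higher and 0.324% lower.

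Coenzyme Q synthesis starts from the isoprenoid made by the mevalonate pathway. All 4 cultures held compactin, which blocks that pathway at an early step, together with added mevalonate, and the isoprenoid supply was not measured. Of the 13 genes of coenzyme Q synthesis, 3 were called higher and 1 lower with 25-hydroxyvitamin D3 (median 0.42), where 11.6% and 12.2% of all genes were. The methyltransferase gene Coq3 was 3.42-fold higher (2.97 to 3.95), Coq10a, a coenzyme Q binding protein, 3.17-fold (2.75 to 3.68) and Pdss2, of the enzyme that makes the isoprenoid tail, 2.45-fold (2.17 to 2.77), while the kinase-like Coq8a, listed under its older symbol Adck3, was 2.80-fold lower. Coq3 was also called with the SREBP inhibitor, at 2.10-fold, where 1.95% of all genes were called higher. With the VDR activator 0 of the 13 were called, near the 0.184% of all genes called higher and 0.324% lower. Of 17 genes of the citric acid cycle and pyruvate dehydrogenase, 2 were called higher and 0 lower (median 0.52), a share of higher calls near the 11.6% of all genes. These were Suclg2, of succinyl-CoA synthetase, at 2.32-fold (2.22 to 2.42), and the fumarase gene Fh at 2.11-fold (1.98 to 2.25). All 17 lay above DMSO, where 5936 of 11482 genes tested did.

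Of 26 nuclear genes that copy and process mitochondrial DNA and RNA, 24 lay above DMSO and 2 below with 25-hydroxyvitamin D3. Of the 26, 11 were called higher and 0 lower, where 11.6% and 12.2% of all genes were, and the median was 0.70, ranging from -0.68 to 1.83. With the SREBP inhibitor 2 were called higher (1.95% of all genes), and with the VDR activator 0 (0.184%). Lrpprc, which stabilises mitochondrial mRNAs, had 180 CPM in DMSO, 219 with the VDR activator, 384 under the SREBP inhibitor and 644 with 25-hydroxyvitamin D3 (3.58-fold, 3.45 to 3.71). Tbrg4, which acts on mitochondrial RNA, was 3.51-fold higher, Trmt10c, of mitochondrial RNase P, 3.23-fold and Tfb1m, a methyltransferase of the mitochondrial ribosomal RNA, 3.22-fold. The mitochondrial RNA polymerase Polrmt, with 47.9 against 81.2 CPM, and the packaging factor Tfam, with 44.2 against 70.1 CPM, did not pass 2-fold. Among 7 measured nuclear regulators of respiratory genes, 4 were called higher (11.6% of all genes) with a median of 1.07, namely the coactivator genes Pprc1 (3.67-fold, 3.40 to 3.97) and Ppargc1b (3.12-fold), the receptor gene Esrra (2.14-fold) and Nrf1 (2.12-fold). Ppargc1a was at 0 counts in all 4 libraries. These lists were chosen for the pathway, with earlier results of these data known.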

How the data were processed

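The deposited table gives estimated counts, partly not whole, and the authors' FPKM for each gene, per the file headers. Per the submitters' processing notes, TopHat2 (version 2) and bcl2fastq (version 1) were among the tools, their roles unstated. For the counter, the build and the annotation, the sources used here give nothing. Where a gene had rows at several loci these were added up (21266 rows, 20754 genes) and the counts rounded. Library sizes were adjusted by TMM (edgeR 4.0.16, R 4.3.3). A call needs a difference of 1 in log2(CPM + 1), which understates changes of low genes, with at least 1 CPM and 10 counts in 1 of the 2 libraries. Intervals are exact Clopper-Pearson (scipy 1.17.1), and reads without molecular identifiers are not independent molecules. Lengths are counts over FPKM on the summed counts, on a length term the authors do not state. The calling code was run on simulated counts that held counting error only, so that run cannot test the spread between cultures. Named genes are the mitochondrial-encoded members, called nuclear members, the extremes of each complex, complex I core subunits, listed isoforms and, of other lists, up to 4 called genes a direction; others were named after their values were seen, to complete a role. LOC rows were matched by description. One core subunit is counted but not reported here by itself. The members and lists were chosen with earlier results of these data known. Alternatives concern scaling, pseudocount, minimum, limit and LOC rows. Of 52 assembly factors 46 had a row of their own, as had 26 of 28 mitochondrial DNA and RNA genes and 6 of 8 isoforms; the rest were not analysed here.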

Additional observations from a re-analysis of the deposited data

How the results depend on the processing

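The 13 mitochondrial-encoded members called lower with 25-hydroxyvitamin D3, against DMSO and against either selective compound, stayed 13 under all scalings, pseudocounts, minimums and limits tried. Counts of nuclear members are small and moved. Against DMSO, total counts and FPKM library totals each gave 2 lower (Ndufa2 and Atp5i) and 0 higher with 25-hydroxyvitamin D3, in place of 0 and 1, and a pseudocount of 0.1 gave 2 lower. Over all genes these 3 settings gave 1553, 1543 and 1720 lower, in place of 1403 of 11482 tested. They gave 1110, 1129 and 1481 higher, in place of 1332. A 1.5-fold limit gave 5 lower and 5 higher nuclear members, where 23.6% and 24.2% of all genes passed, and 1 mitochondrial-encoded member (ND3) lower with the SREBP inhibitor, where 6.2% did. Against the SREBP inhibitor that limit gave 2 nuclear members lower (16.1% of genes). Against the VDR activator, 1 lower became 3 with total counts or FPKM library totals, 2 with a pseudocount of 0.1 or with the LOC rows, 0 with a pseudocount of 5, and 4 lower and 2 higher at 1.5-fold (21.1% and 20.5%). Over all genes, 1127 lower became 1356 with total counts, 1381 with FPKM library totals, 1446 with a pseudocount of 0.1 and 616 with 5. Apart from the different limits and rows themselves, the cause was not tested. The median of all genes moved by more than 0.1 with scaling only for 25-hydroxyvitamin D3 against a selective compound, from 0.02 to -0.10 against the VDR activator with the FPKM library totals. No paired analysis was possible because each treatment has 1 library. Depth limits only the low members such as Atp5sl, where 28 counts stood behind the DMSO value.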
